A study of Mus musculus with 12 samples.

Results

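Basement membranes are thin sheets of extracellular matrix that underlie endothelium and surround other cells. Their laminins are trimers of an alpha, a beta and a gamma chain that polymerise beneath the cell, nidogens link this network to the network of type IV collagen, and perlecan, a large heparan sulphate proteoglycan, binds to both and retains growth factors. In bone, continuous basement membrane lines arterioles and capillaries, whereas the wall of marrow sinusoids is known for an interrupted one.

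Transcripts of 10 genes were followed: Hspg2 (perlecan), the laminin chain genes Lama4, Lama5, Lamb1, Lamb2 and Lamc1, the nidogen genes Nid1 and Nid2, Sparc, which encodes a secreted protein that binds collagen, and Npnt, which encodes nephronectin, a matrix ligand of integrins. They were chosen by name as components or partners of the basement membrane, with earlier results of these data known. All 10 were found among the 37620 genes of the count table, of which 23039 had at least 1 count. Bone endothelial cells (BECs) had been sorted by endomucin, a sialomucin of venous and capillary endothelium, from what the labels give as tibia of mice of the inbred strain C57/Bl6, with no treatment named. Each sex was taken at 2 and at 65 weeks of age, with 3 libraries in each of the 4 groups: 2-week females, 2-week males, 65-week females and 65-week males. Nothing in the labels says whether the libraries of a group came from separate mice, so the p-values measure the spread between these samples, which may be technical. Per the study's methods, the samples with the best RNA of each set were taken forward.

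Total counts per library ran from 35012947 to 44569600 at 2 weeks and from 26044743 to 34088694 at 65 weeks. All libraries matched their labelled sex, but 2 stood apart. Male 65-week replicate 3 held 117 counts of Xist, the transcript of the inactive X chromosome, where the other males of that age held 3 and 0. Female 2-week replicate 3 held 25 counts over 4 Y-linked genes, where the other 5 female libraries held 0 or 1. Differences between sexes in single genes and in the pair ratios are therefore given with and without these libraries. The 22 endothelial markers examined were detected at both ages, and none was at 3 counts or fewer in every library of a group. Markers of other cells were present as well, with summed erythroid transcripts at 31346 to 58966 CPM (counts scaled to the library total) across all libraries against 273 to 7501 CPM for the endothelial markers.

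The sequence just upstream of the start is shown for 4 of the genes: Npnt and Hspg2, which fell most between ages, Sparc, the most abundant, and Lamb2, with one of the smaller falls. Each line holds 250 bases that end at the start, from RefSeq on GRCm38.p6, read 5′ to 3′ on the strand of the gene. Capitals mark a GC box (GGGCGG or its reverse complement CCGCCC, a letter pattern bound by Sp1-type factors) or an ETS core (AGGAAG or CTTCCT, the pattern of a factor family with known roles in endothelium). A TATA box (TATAAA or TTTATA) was searched as well and would also have been in capitals. No match overlapped another.
Npnt, chr3:132950292-132950541, minus strand: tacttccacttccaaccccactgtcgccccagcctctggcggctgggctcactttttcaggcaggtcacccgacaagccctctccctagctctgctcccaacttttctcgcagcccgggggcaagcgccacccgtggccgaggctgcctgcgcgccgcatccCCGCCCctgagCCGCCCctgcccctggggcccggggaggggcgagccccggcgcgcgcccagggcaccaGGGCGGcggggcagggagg
Hspg2, chr4:137468553-137468802, plus strand: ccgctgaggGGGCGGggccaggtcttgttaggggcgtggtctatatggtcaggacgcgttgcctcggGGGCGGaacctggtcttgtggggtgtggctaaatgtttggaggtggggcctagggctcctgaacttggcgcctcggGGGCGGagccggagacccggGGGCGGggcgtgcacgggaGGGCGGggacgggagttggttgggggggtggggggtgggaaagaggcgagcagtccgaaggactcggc
Sparc, chr11:55420081-55420330, minus strand: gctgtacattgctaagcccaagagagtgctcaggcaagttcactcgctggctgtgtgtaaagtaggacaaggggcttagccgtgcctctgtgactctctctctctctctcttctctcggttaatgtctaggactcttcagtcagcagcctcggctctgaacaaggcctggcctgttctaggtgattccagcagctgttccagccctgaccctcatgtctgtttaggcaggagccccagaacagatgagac
Lamb2, chr9:108479612-108479861, plus strand: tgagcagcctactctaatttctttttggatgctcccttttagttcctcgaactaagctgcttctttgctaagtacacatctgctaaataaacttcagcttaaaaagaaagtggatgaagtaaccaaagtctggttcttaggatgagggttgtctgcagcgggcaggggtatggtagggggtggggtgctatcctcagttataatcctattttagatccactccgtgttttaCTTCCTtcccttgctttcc
The RefSeq table matched 7 of the 10 genes with 8 windows, since Npnt has a pair of starts, and held none for Lama4, Lamc1 and Nid2. The 4 windows differed in composition, with a GC content of 74% for Npnt, 70% for Hspg2, 54% for Sparc and 43.6% for Lamb2, against a median of 52.4% over all 32851 windows of the table. The windows not shown had a GC content of 72.4% for Lama5, 64.4% for Nid1, 62% for Lamb1 and 69.6% for the other Npnt window. GC boxes numbered 5 for Hspg2 and 3 for Npnt, and the Sparc and Lamb2 windows held none. Of the windows not shown, Lama5 held 4, Lamb1 held 2, Nid1 held 1 and the other Npnt window held 0. In all, 5 of the 8 windows held a GC box, as did 32.7% of all windows. Lamb2 and Nid1 held the ETS core, which 29.5% of all windows held, and no window of these genes held the TATA letters, found in 12.4% of all windows. A match is a description of letters only.

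How these transcripts differ between young and old mice was asked first, in each sex. All 10 were lower at 65 weeks in both sexes, by 11.1-fold (Lamc1) to 138-fold (Npnt) in females and by 11.6-fold (Lamb2) to 115-fold (Npnt) in males, and in both sexes every 65-week library lay below every 2-week library for each of the 10. Perlecan and nephronectin fell the most, Sparc came next, and the laminin beta and gamma chains fell the least. All 10 passed as lower in edgeR (quasi-likelihood F test, p adjusted over all genes tested by Benjamini-Hochberg and under 0.05), where 29.5% of 15120 genes did so in females and 28.5% of 14959 in males. With a change of at least 4-fold required as well, all 10 still passed, against 11.4% of all genes in females and 12.5% in males. Libraries that did not overlap, with 65 weeks lower, were found for 41.6% of all genes in females and 39.4% in males. The median log2 fold change of the 10 was -4.12 in females and -4.54 in males, against 0.0056 and 0.0080 over all genes tested. In bulk RNA, fewer cells of a type and less RNA per cell cannot be told apart.

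**Figure D1:**
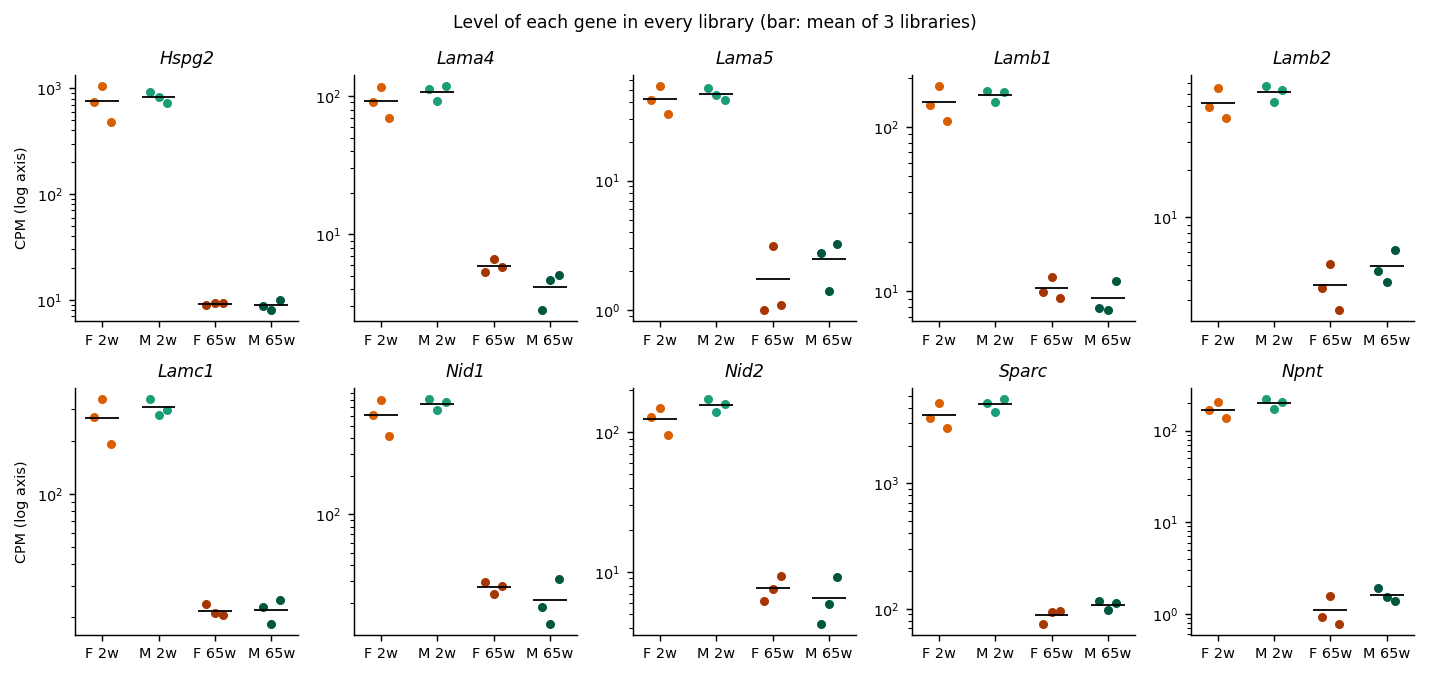
Level of each of the 10 genes in CPM, on a log axis that differs between panels, in the 12 libraries by sex (F, M) and age (2w, 65w). Points are libraries in order of replicate, bars are means of 3. For each gene the 65-week points lie below the 2-week points in both sexes, while male and female points of 1 age lie close together.

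Perlecan is the largest of these proteins, and its heparan sulphate chains bind growth factors such as VEGF and FGF. Hspg2 (ENSMUSG00000028763, GRCm39 chromosome 4, 137196079 to 137298231, plus strand) was measured at 748, 1057 and 485 CPM in the 2-week female libraries and at 923, 831 and 731 CPM in the 2-week male libraries. At 65 weeks it was at 8.88, 9.42 and 9.35 CPM in females and 8.78, 7.96 and 10.1 CPM in males. The 2-week females were spread widely, with replicate 3 lowest, whereas the 6 libraries of 65 weeks sat close together, and the ages were far apart. From 2 to 65 weeks it differed on the log2 scale by -6.23 (SE 0.286, edgeR adjusted p = 2.59e-06) in females and -6.42 (SE 0.159, edgeR adjusted p = 6.99e-07) in males.

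Laminin alpha chains carry the domains that cells bind, and Lama4 and Lama5 encode those found beneath endothelium, Lama5 chiefly where the vessel is mature. Lama4 (ENSMUSG00000019846, chromosome 10, 38841141 to 38998403, plus strand) was measured at 90.9, 116 and 69.1 CPM in 2-week females and 113, 92.5 and 119 CPM in 2-week males. In old mice it was at 5.30, 6.63 and 5.83 CPM in females and 2.82, 4.63 and 5.11 CPM in males. Every old male library was thus below every old female library, by a small margin, and all were far below the young libraries. Its log2 fold change with age was -3.81 (SE 0.192, edgeR adjusted p = 3.43e-06) in females and -4.58 (SE 0.214, edgeR adjusted p = 3.08e-06) in males. Lama5 (ENSMUSG00000015647, chromosome 2, 179818166 to 179867712, minus strand) was measured at 41.8, 53.8 and 32.6 CPM in 2-week females and 51.7, 45.9 and 41.5 CPM in 2-week males. It was at 0.998, 3.11 and 1.09 CPM in 65-week females and 2.78, 1.41 and 3.26 CPM in 65-week males. Female 65-week replicate 2 was about level with the higher male libraries, and the remaining females were lower. The log2 fold change of Lama5 was -4.45 (SE 0.402, edgeR adjusted p = 4.42e-05) in females, or -5.22 without female 65-week replicate 2, and -4.11 (SE 0.274, edgeR adjusted p = 1.49e-05) in males. At 65 weeks it rested on 29 to 106 counts per library.

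The beta chains Lamb1 and Lamb2 take the same place in the trimer, and the gamma chain Lamc1 is shared by most laminins. Lamc1 (ENSMUSG00000026478, chromosome 1, 153094597 to 153208774, minus strand) was measured at 272, 343 and 192 CPM in 2-week females and 343, 281 and 299 CPM in 2-week males. The old mice had 23.9, 21.2 and 20.6 CPM in females and 22.8, 18.5 and 25.1 CPM in males. The old libraries of both sexes overlapped, and their spread was narrow. With age it changed on the log2 scale by -3.48 (SE 0.196, edgeR adjusted p = 5.16e-06) in females and -3.68 (SE 0.146, edgeR adjusted p = 1.58e-06) in males. Lamb1 (ENSMUSG00000002900, chromosome 12, 31315030 to 31379658, plus strand) ran from 108 to 178 CPM over the 6 libraries of 2 weeks and from 7.67 to 12.3 CPM over those of 65 weeks, with a log2 fold change of -3.61 (SE 0.195) in females and -4.01 (SE 0.163) in males. Lamb2 (ENSMUSG00000052911, chromosome 9, 108356935 to 108367729, plus strand) was lower at each age, at 42.4 to 67.5 CPM and 2.59 to 6.26 CPM, and changed by -3.65 (SE 0.254) in females and -3.53 (SE 0.180) in males. Both beta chains passed the test in both sexes (edgeR adjusted p from 1.68e-06 to 1.28e-05).

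Nidogens are rod-like linkers between laminin and type IV collagen, and Nid1 and Nid2 can stand in for each other in part. Nid1 (ENSMUSG00000005397, chromosome 13, 13612071 to 13686860, plus strand) was measured at 611, 797 and 413 CPM in 2-week females and 811, 664 and 769 CPM in 2-week males. At 65 weeks it was at 29.5, 23.6 and 27.3 CPM in females and 18.7, 13.8 and 30.8 CPM in males. Among the old males, replicate 3 alone exceeded the females. Its log2 fold change with age was -4.36 (SE 0.232, edgeR adjusted p = 4.13e-06) in females and -5.04 (SE 0.290, edgeR adjusted p = 7.80e-06) in males. Nid2 (ENSMUSG00000021806, chromosome 14, 19801298 to 19861855, plus strand) ran from 96.0 to 173 CPM at 2 weeks and from 4.28 to 9.31 CPM at 65 weeks. It changed by -3.87 (SE 0.196, edgeR adjusted p = 3.49e-06) in females and -4.49 (SE 0.253, edgeR adjusted p = 7.09e-06) in males, and its highest old male library was again replicate 3.

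SPARC, also called osteonectin, binds collagens and calcium and is abundant in bone matrix as well as in endothelium. Sparc (ENSMUSG00000018593, chromosome 11, 55285317 to 55314067, minus strand) was measured at 3309, 4373 and 2769 CPM in 2-week females and 4357, 3736 and 4699 CPM in 2-week males. In old mice it was at 76.2, 93.9 and 95.1 CPM in females and 114, 98.1 and 111 CPM in males. All old male libraries lay above all old female libraries. With age it changed by -5.16 (SE 0.188, edgeR adjusted p = 1.64e-06) in females and -5.19 (SE 0.160, edgeR adjusted p = 9.63e-07) in males.

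Nephronectin is bound by the integrin of alpha 8 and beta 1 chains. Npnt (ENSMUSG00000040998, chromosome 3, 132587506 to 132656257, minus strand) was measured at 169.9, 204 and 136 CPM in 2-week females and 221, 174 and 208 CPM in 2-week males. At 65 weeks it was at 0.929, 1.58 and 0.785 CPM in females and 1.90, 1.52 and 1.38 CPM in males, which rested on 23 to 54 counts per library. The old libraries of both sexes overlapped and lay far below the young ones. Its log2 fold change with age was -7.11 (SE 0.262, edgeR adjusted p = 1.64e-06) in females and -6.85 (SE 0.188, edgeR adjusted p = 7.23e-07) in males.

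In these annotations, exons of a gene on the opposite strand overlap 4 of the genes and were counted in the same table: Adrm1 at Lama5, Dld at Lamb1, Rtraf at Nid2 and Fam229b at Lama4. In 65-week females Adrm1 held 1650 to 2144 counts against 29 to 106 for Lama5, Dld 2280 to 2530 against 266 to 419 for Lamb1, and Rtraf 1945 to 2387 against 181 to 273 for Nid2. Fam229b held at most 47 counts in any library. Whether the counting used strand is not stated, and the part of these neighbours in the values was not tested.

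**Figure D2:**
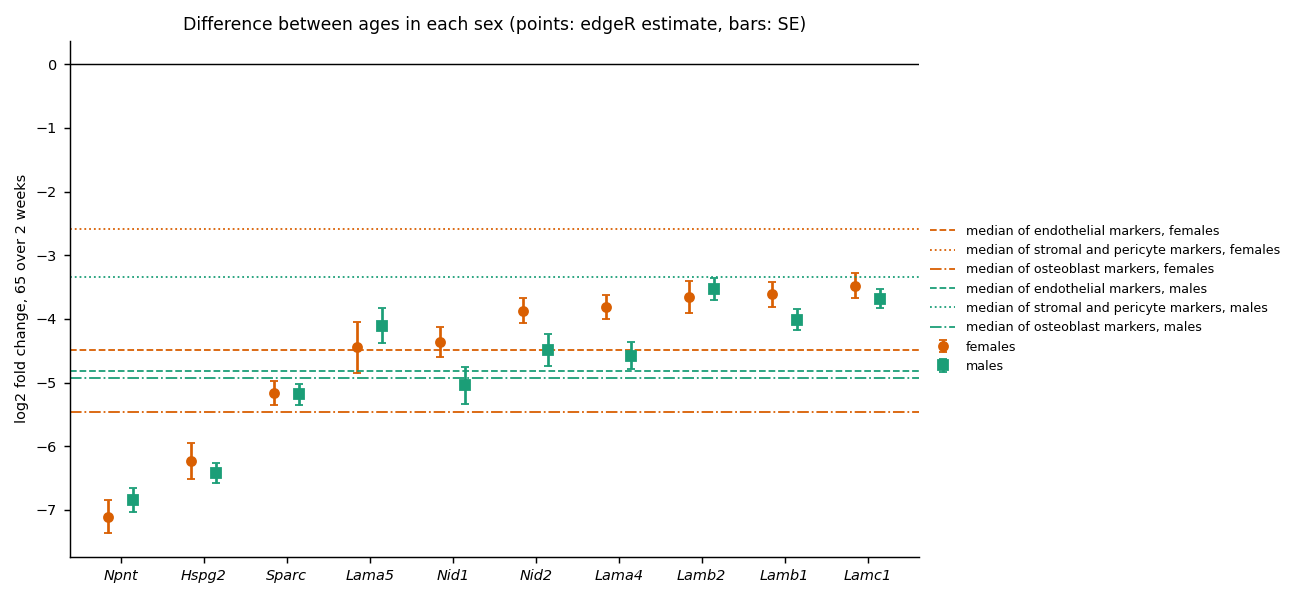
Log2 fold change (65 over 2 weeks) of the 10 genes in females (circles) and males (squares), ordered by the female value, with SE bars. Horizontal lines give the median of the endothelial (dashed), stromal and pericyte (dotted) and osteoblast (dash-dotted) marker lists. Npnt and Hspg2 lie below all of these lines, while Lama4, Lama5, Lamb1, Lamb2, Lamc1 and Nid2 lie above the endothelial line of their sex, as does Nid1 in females only.

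Markers of several cell types moved in the same direction. The 22 endothelial markers all passed the edgeR test as lower at 65 weeks in both sexes, with a median log2 fold change of -4.49 in females and -4.82 in males, and their summed level went from 4086 to 7055 CPM in 2-week females and 5912 to 7501 CPM in 2-week males to 308 to 394 CPM and 273 to 363 CPM. Emcn, which encodes the protein used for the sort, changed by -4.73 (SE 0.317) in females and -5.01 (SE 0.210) in males. All 14 osteoblast markers were lower too, with sums of 7139 to 10431 CPM at 2 weeks in both sexes together and 175 to 362 CPM at 65 weeks, where Tnn was at 0 in both sexes. Of 14 chondrocyte markers 13 were tested and all were lower (sums of 476 to 745 CPM against 13.4 to 18.8 CPM, with Col10a1 and Ucma at 0 in old females and Col9a1 at 0 in old males). The 15 stromal and pericyte markers were all lower, but their sum fell less, from 5592 to 8919 CPM to 994 to 1656 CPM. Sparc and other genes of the set are known to be made by osteoblasts, chondrocytes and stromal cells as well. These lists moved with the result, and their part in it was not tested.

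Blood cell markers went in other directions. The summed B cell markers were 17.3-fold higher at 65 weeks in females and 17.4-fold in males, with Ighm the most abundant gene of the sum, while the median log2 fold change of the 12 markers was 1.96 and 2.23. In the same order of sexes, sums at 65 weeks were higher for plasma cell markers by 3.89- and 3.00-fold, neutrophil markers by 2.12- and 4.32-fold, T and NK cell markers by 2.08- and 1.99-fold and monocyte and macrophage markers by 1.71- and 1.39-fold. Single markers did not all follow these sums. Of 8 plasma cell markers, edgeR called 6 higher and 1 lower in females, and 5 and 2 in males. For 13 neutrophil markers it was 11 and 1, and 12 and 0. For 14 T and NK cell markers it was 12 and 1, and 9 and 2. For 14 monocyte and macrophage markers it was 11 and 1, and 7 and 2. Summed erythroid markers stayed at 1.02- and 1.09-fold of their 2-week level, with 3 and 4 of 13 called higher and 0 lower. Megakaryocyte markers were all lower, 12 of 12 in both sexes, with sums 6.69- and 9.76-fold lower. A CPM is a share of the library.

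Whether a gene fell by more or by less than the summed endothelial markers was asked with a measure that does not depend on the library total, the log2 ratio of its counts to the summed counts of the 22 endothelial markers, of which Stab2 was the most abundant. Ages were permuted within sex (two-sided exact permutation, 400 relabelings, Benjamini-Hochberg adjusted over the 10 genes). Against the endothelial sum, Npnt was lower at 65 weeks by 7.52-fold (log2 change -2.91) and Hspg2 by 4.58-fold (log2 change -2.20), and Sparc and Nid1 were lower by 2.10-fold and 1.54-fold. For Nid1 this holds against the sum: beside the median of the list, its log2 change with age was the smaller fall in females (-4.36 against -4.49) and the larger in males (-5.04 against -4.82). Lamc1 was higher by 1.44-fold and Lamb1 by 1.21-fold. These 6 genes had an exact permutation p = 0.005, the smallest that 400 relabelings can give, and an adjusted p = 0.00833 each. Lamb2 was higher by 1.39-fold (exact permutation adjusted p = 0.0429), with a log2 change of 0.14 in females and 0.81 in males. In females the range of the old libraries spanned that of the young ones. The call was lost when any of 7 of the 12 libraries was left out, where the log2 change was 0.40 to 0.48. These were female 2-week replicates 1 and 2, all male 2-week replicates and female 65-week replicates 1 and 2. Lama4, Lama5 and Nid2 did not pass, with log2 changes of -0.11, -0.32 and -0.11 and exact permutation adjusted p = 0.595, 0.394 and 0.583.

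**Figure D3:**
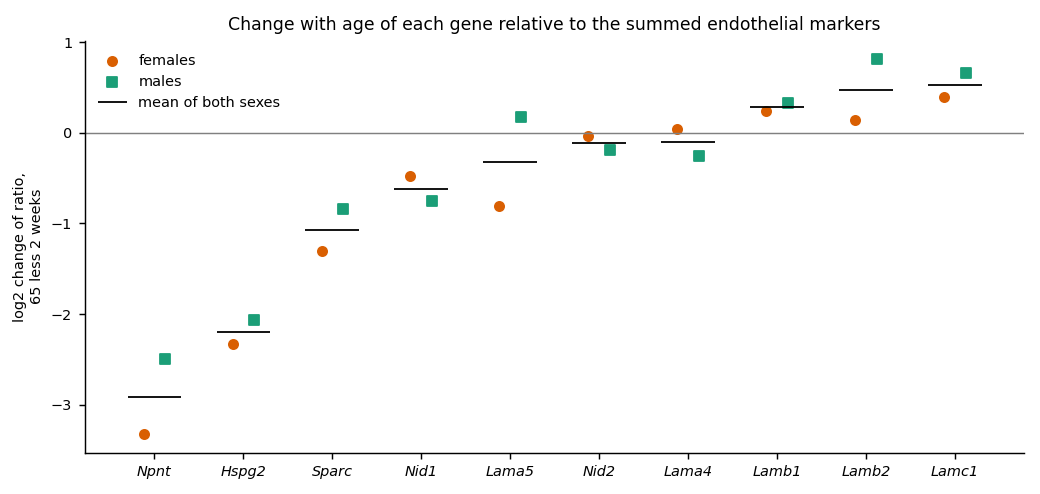
Change with age (65 less 2 weeks) of the mean log2 ratio of each gene to the summed endothelial markers, in females (circles) and males (squares), with the mean of both sexes as a bar. Npnt, Hspg2, Sparc, Nid1 and, closer to 0, Nid2 lie below 0 in both sexes. Lamb1, Lamb2 and Lamc1 lie above 0 in both, while Lama4 and Lama5 have opposite signs in females and males.

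The make-up of the set changed accordingly. Together the 10 genes took 0.575 ± 0.151% of all counts in 2-week females and 0.688 ± 0.0624% in 2-week males (SD, n = 3), and 0.0177 ± 0.00101% and 0.0189 ± 0.00253% at 65 weeks. Of the counts of the set, Sparc held 61.0 ± 2.42% in young females and 61.9 ± 2.50% in young males, and 49.8 ± 3.38% and 57.5 ± 4.83% in old ones. Lamc1 went from 4.66 ± 0.243% and 4.48 ± 0.321% to 12.4 ± 1.72% and 11.7 ± 0.383% of the set. Hspg2 went the other way, from 13.0 ± 1.67% and 12.1 ± 1.79% to 5.21 ± 0.138% and 4.74 ± 0.119%. For both genes the shares at the 2 ages did not overlap. The same held for Npnt, which went from 2.99 ± 0.185% and 2.92 ± 0.124% to 0.618 ± 0.218% and 0.861 ± 0.190%. It also held for Lamb1 and Lamb2, whose shares rose.

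Partners and near relatives were compared within each library, as 5 ratios of counts tested for age and for sex (two-sided exact permutation within strata, adjusted over the 10 tests). Hspg2 had 2.79 ± 0.276 counts per count of Lamc1 in 2-week females and 2.698 ± 0.258 in 2-week males, and 0.423 ± 0.0446 and 0.406 ± 0.0234 at 65 weeks (SD, n = 3). The 6 young libraries ranged from 2.44 to 3.08 and the 6 old ones from 0.372 to 0.454. This is a 6.61-fold difference, with an exact permutation p = 0.005, the smallest possible, and an adjusted p = 0.05. The adjusted p is not under the threshold. Over the 10 tests, however, a ratio that alone holds the smallest p cannot pass, however large its difference. The adjusted p therefore cannot decide whether this ratio differed with age, while the ranges of the young and old libraries did not overlap.

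The paralog pairs moved less. Nid1 had 4.80 ± 0.538 counts per count of Nid2 in young females and 4.77 ± 0.0861 in young males, and 3.59 ± 1.000 and 3.34 ± 1.01 in old ones, so the ratio was 1.42-fold lower at 65 weeks (exact permutation p = 0.02, adjusted p = 0.0667). Lamb1 had 2.68 ± 0.106 and 2.57 ± 0.0995 counts per count of Lamb2 in young females and males, and 2.90 ± 0.555 and 1.84 ± 0.120 in old ones. The 3 old males, at 1.71, 1.95 and 1.85, lay below all other libraries, yet the ratio did not pass for sex over both ages (exact permutation p = 0.015, adjusted p = 0.0667). The log2 difference, male less female, was -0.35, and it was -0.37 without female 2-week replicate 3 (exact permutation adjusted p = 0.05) and -0.35 without male 65-week replicate 3 (exact permutation adjusted p = 0.0667). Lamb1 to Lamc1, chains of the same trimer, went from 0.529 ± 0.0328 and 0.513 ± 0.0316 to 0.479 ± 0.0872 and 0.407 ± 0.0578 (exact permutation p for age 0.04, adjusted p = 0.1). Lama4 to Lama5 was at 2.12 to 2.17 in young females and 2.01 to 2.87 in young males. It ran from 2.13 to 5.34 in old females and from 1.01 to 3.29 in old males, where both transcripts were few (exact permutation p for age 0.59, for sex 0.175). These tests average over strata of opposite sign. The log2 change of the ratio with age was 0.86 in females and -0.43 in males. Its log2 difference, male less female, was 0.11 at 2 weeks and -1.17 at 65 weeks. Averaged over both ages, the log2 differences between sexes of the other 4 ratios were -0.53 (Lama4 to Lama5), -0.14 (Lamb1 to Lamc1), -0.059 (Nid1 to Nid2) and -0.052 (Hspg2 to Lamc1). They were -0.53, -0.11, -0.098 and -0.086 without female 2-week replicate 3, and -0.49, -0.18, -0.069 and -0.049 without male 65-week replicate 3, and none passed (exact permutation adjusted p of at least 0.28).

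**Figure D4:**
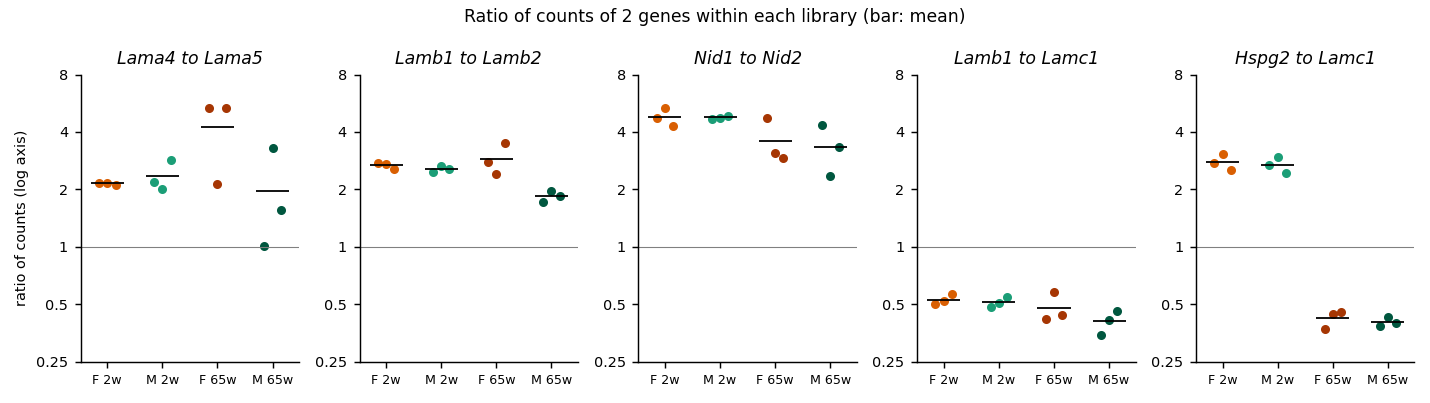
Ratio of counts of 5 gene pairs in each library, on a log axis common to the panels, by sex and age, with the mean as a bar. The ratio of Hspg2 to Lamc1 lies above 2 in the 6 young libraries and below 0.5 in the 6 old ones, and the ratio of Lama4 to Lama5 is spread widely at 65 weeks.

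Levels of different genes were compared per kilobase of the canonical transcript. In 2-week females the order was Sparc (1509 ± 353 CPM per kb), Nid1 (99.6 ± 31.6), Hspg2 (52.6 ± 19.7), Npnt (49.3 ± 9.85), Lamc1 (33.9 ± 9.56), Nid2 (25.4 ± 5.42), Lamb1 (24.3 ± 6.04), Lama4 (15.2 ± 3.88), Lamb2 (9.32 ± 2.10) and Lama5 (3.73 ± 0.932, SD, n = 3 each). Over the libraries, only Sparc and Lama5 had ranges clear of their neighbour in this order. Within each library, though, the order of neighbours was the same, with 2 exceptions. Hspg2 was below Npnt in replicate 3 (33.4 against 39.4), and Nid2 was just below Lamb1 in replicate 2 (30.3 against 30.7). The 2-week males had the same order but for Hspg2 (57.1 ± 6.61) and Npnt (58.4 ± 7.02), which overlapped. Of the other neighbours in young males, the ranges of Nid2 and Lamb1 overlapped and the rest did not, though Nid2 was above Lamb1 within each library.

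At 65 weeks the females had Sparc at 38.3 ± 4.59 CPM per kb, Nid1 at 4.39 ± 0.496, Lamc1 at 2.76 ± 0.219, Lamb1 at 1.80 ± 0.287, Nid2 at 1.57 ± 0.315, Lama4 at 0.979 ± 0.111, Lamb2 at 0.667 ± 0.224, Hspg2 at 0.635 ± 0.0201, Npnt at 0.319 ± 0.124 and Lama5 at 0.151 ± 0.104 (SD, n = 3 each). The males differed in order only in Lamb2 (0.875 ± 0.213) and Lama4 (0.692 ± 0.200), and Hspg2 was at 0.616 ± 0.0728 and Npnt at 0.465 ± 0.0784. Hspg2 therefore went from rank 3 or 4 of 10 to rank 8 and Npnt from rank 3 or 4 to rank 9, while Lamc1 went from rank 5 to rank 3. In old females the ranges of Lamb1 and Nid2, of Lama4 and Lamb2, of Lamb2 and Hspg2, and of Npnt and Lama5 overlapped. Within each old female library, though, Lama4 was above Lamb2 and Npnt above Lama5. In old males the ranges of neighbours overlapped except between Sparc and Nid1, Lamc1 and Lamb1, and Npnt and Lama5. Within each old male library, though, Lamb1 was above Nid2, Nid2 above Lamb2 and Hspg2 above Npnt. Divided by the union of all exons instead, Lama4 came below Lamb2 at every age and Hspg2 had rank 7 at 65 weeks.

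Sexes were compared at each age. At 2 weeks none of the 10 genes passed, by edgeR at an adjusted p under 0.05 (0.0332% of 15081 genes passed), by edgeR at an unadjusted p under 0.05 (17.8% of genes) or by DESeq2 (3.12% of 13211 genes). All 10 log2 differences of male over female were above 0, from 0.11 (Lama5, 95% interval -0.27 to 0.48) and 0.11 (Hspg2, -0.44 to 0.66) to 0.32 (Nid2, -0.017 to 0.66). Lamb1 was at 0.14, Lamc1 at 0.18, Lama4 and Lamb2 at 0.22, Npnt at 0.23, Sparc at 0.28 and Nid1 at 0.29. The libraries of the sexes overlapped for all 10, while 21.7% of all genes had libraries that did not. The median difference of the 10 genes was 0.22, against 0.011 over all genes tested and 0.32 for the endothelial markers. In the young females replicate 2 was highest and replicate 3 lowest for every gene of the set, with Hspg2 2.18-fold and the summed endothelial markers 1.73-fold apart between them. Without replicate 3, the library with Y-linked counts, Hspg2, Lama5, Lamb1 and Lamc1 changed sign, to -0.13, -0.051, -0.0075 and -0.0074. Lama4 was then at 0.055, Nid1 at 0.080, Lamb2 at 0.089, Npnt at 0.098, Sparc at 0.14 and Nid2 at 0.17.

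At 65 weeks none of the 10 passed either, by edgeR adjusted (0.042% of 14287 genes passed), by edgeR unadjusted (10.4%) or by DESeq2 (2.55%). For 2 of the 10 the libraries of the sexes did not overlap, as for 15.5% of all genes. These were Lama4, lower in males with a log2 difference of -0.52 (95% interval -1.11 to 0.058, edgeR adjusted p = 0.541), and Sparc, higher in males by 0.27 (-0.011 to 0.56, edgeR adjusted p = 0.4996). The intervals were widest for the transcripts with the fewest counts, Lama5 (0.49, -0.72 to 1.70) and Npnt (0.53, -0.45 to 1.51), and narrowest for Sparc and Lamc1 (6.7e-05, -0.32 to 0.32). Without female 65-week replicate 2 the difference of Lama5 was 1.23 (edgeR adjusted p = 0.698). The remaining differences were -0.37 for Nid1, -0.28 for Nid2, -0.23 for Lamb1, -0.061 for Hspg2 and 0.37 for Lamb2. Without male 65-week replicate 3, in which 8 of the 10 genes were highest among old males, 830 genes of the table passed and still none of the 10. Nid1 was then at -0.70 (edgeR adjusted p = 0.0608), Lama4 at -0.66 (edgeR adjusted p = 0.212) and Nid2 at -0.59 (edgeR adjusted p = 0.219). The other 7 were then at -0.41 (Lamb1), -0.12 (Hspg2), -0.063 (Lamc1), 0.20 (Lamb2), 0.28 (Sparc), 0.29 (Lama5) and 0.65 (Npnt).

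The interaction of sex and age was fitted to the 12 libraries together, to ask whether the sexes differed by the same amount at both ages. None of the 10 passed by edgeR adjusted (0.00635% of 15747 genes) or DESeq2 (2.42%), and 1 passed at an unadjusted p under 0.05 (11.9% of genes). This was Lama4, with a log2 estimate of -0.76 (SE 0.298, edgeR adjusted p = 0.338). The estimates for Nid1 (-0.68, 95% interval -1.47 to 0.12) and Nid2 (-0.61, -1.32 to 0.094) were of the same sign, and those for Sparc (-0.021, -0.52 to 0.47) and Hspg2 (-0.18, -0.86 to 0.50) were nearer 0. Lamb1 (-0.39) and Lamc1 (-0.20) lay below 0, and Lamb2 (0.13), Npnt (0.26) and Lama5 (0.35) above it. Without female 65-week replicate 2 Lama5 was at 1.11 (edgeR adjusted p = 0.403). Without female 2-week replicate 3 Lama4 was at -0.59, Nid1 at -0.46, Nid2 at -0.45, Lamb1 at -0.23, Lamc1 at -0.0030, Hspg2 at 0.060, Sparc at 0.12, Lamb2 at 0.26, Npnt at 0.40 and Lama5 at 0.51. When male 65-week replicate 3 was left out, 750 genes passed this test, none of them in the set. The estimates were then -0.99 (Nid1), -0.91 (Nid2), -0.88 (Lama4), -0.55 (Lamb1), -0.24 (Lamc1), -0.23 (Hspg2), -0.023 (Lamb2), 0.0072 (Sparc), 0.16 (Lama5) and 0.40 (Npnt).

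The rest of the basement membrane was read from lists of related genes, each against the share of all genes called lower (29.5% in females, 28.5% in males). Type IV collagen forms the second network of the sheet. Col4a1 went from 1276 ± 313 and 1471 ± 169 CPM in young females and males to 30.0 ± 6.52 and 21.4 ± 1.67 CPM (SD, n = 3), a log2 fold change of -5.27 in females and -5.98 in males, and Col4a2 changed by -5.16 and -5.82. Col4a5 changed by -2.76 and -4.60, on at most 18 counts in an old female library and 4 in an old male one. Col15a1 (-4.62 and -4.72) and Col18a1 (-5.05 and -5.82), collagens that carry glycosaminoglycan chains in the vessel wall, were lower as well. All 5 of these passed in both sexes, and Col4a3, Col4a4 and Col4a6, with at most 11 counts in any library, were not tested.

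Other laminin chains were scarce at 2 weeks, the highest being Lama1 at 5.32 ± 0.876 CPM in females and Lama2 at 4.51 ± 0.630 CPM in males. Lama1 changed by -2.21 in females and -2.40 in males. Lama3 changed by -2.45 and -3.78, on at most 20 counts in an old female library and 10 in an old male one. Lama2, a chain of muscle and nerve, fell in females (-2.39) and did not pass in males (-0.95, edgeR adjusted p = 0.0537). Lamc3 passed in females (-2.11) and not in males (-2.08, edgeR adjusted p = 0.0591). It had at most 6 counts in an old female library and 10 in an old male one. Lamb3 was at 1.33 in males (edgeR adjusted p = 0.0501) and was not tested in females.

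Among 17 other basement membrane proteins 13 were lower and 2 higher in each sex. Frem1, a protein that anchors epidermal basement membrane, had no count at 65 weeks and was at least 70.2-fold lower in females and 67.8-fold lower in males, taking 3 counts per library as the limit. Hmcn1, a large hemicentin, changed by -6.39 and -5.92, on at most 7 counts in an old female library and 5 in an old male one. The 2 that rose were Efemp1, a fibulin, at 0.965 ± 0.378 and 11.2 ± 2.58 CPM in young and old females and 1.52 ± 0.636 and 6.04 ± 1.45 CPM in young and old males (log2 fold change 3.68 and 2.11), and Ntn4, a netrin that binds laminin gamma chains (0.40 and 0.99). All 5 tested relatives of Sparc were lower, among them Sparcl1 (-6.60 and -5.90) and Fstl1 (-4.35 and -4.64).

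Of 19 receptors of laminin or nephronectin, 15 were lower and 2 higher in females, and 16 lower and none higher in males. By the mean of both sexes Itga1 (-4.01 and -3.95) and Itga2 (-3.49 and -3.98), alpha chains of collagen and laminin receptors, fell most. Itga8, the chain that binds nephronectin, was looked up after the values were known and changed by -3.60 in females and -3.15 in males. Of 19 genes of matrix assembly and crosslinking, 17 were lower in each sex and 1 was higher in females. Pxdn, the peroxidase that crosslinks type IV collagen, was at 190.1 ± 61.3 and 1.61 ± 0.920 CPM in young and old females and 238 ± 31.0 and 2.44 ± 0.876 CPM in young and old males (-6.72 and -6.50). Loxl4, an oxidase of lysines, was at 0 in old females and at least 78.5-fold lower there. In males it went from 8.39 ± 1.03 CPM to 0.061 ± 0.106 CPM (SD, n = 3), with at most 5 counts in an old library. Of 18 proteases and inhibitors 17 were lower and 1 higher in females, and 15 and 1 in males, with Mmp2 (-5.90 and -5.48) and Mmp15 (-4.91 and -5.92) among the lower ones. The exception in both sexes was Hpse, the heparanase that cuts the sugar chains of perlecan, which rose by 0.62 and 0.58 (edgeR adjusted p = 0.000972 and 0.0262).

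Likeness of pattern was measured as the root mean square difference of log2 CPM over the 12 libraries, each profile centred on its own mean. Nearest to the mean profile of the 10 genes, among 9284 other autosomal protein-coding genes, were Gja1 (0.0954), which encodes the gap junction protein connexin 43, Gpr182 (0.124), a receptor of endothelium, and Arhgef15 (0.166), a guanine nucleotide exchange factor. By distance between pairs within the set, Lama4 and Nid2 were each other's nearest (0.184), as were Lamb1 and Lamc1 (0.205) and Hspg2 and Npnt (0.491). Lamb2 was nearest to Lamc1 (0.26), Nid1 to Nid2 (0.359), Sparc to Nid1 (0.427) and Lama5 to Lamb2 (0.486). These are distances over libraries that share the difference between ages and are given as a description.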

How the data were processed

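RNA of 12 libraries of BECs was sequenced as pairs of 100 nt reads. The deposited table holds raw counts per gene, which the authors had not normalised. The labels' processing notes name TopHat2, HTSeq and mm9, whereas the methods of the study name STAR, featureCounts and GRCm39. Which of these made the table was not resolved, and the annotation release, strand setting and treatment of multiply mapped reads are not given in the sources used here. The kit was for total RNA, while the molecule label names polyadenylated RNA. Of the IDs, 31052 (99.287% of counts) were matched to GENCODE M39, from which names, coordinates and transcript lengths were taken by ID.

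Groups were taken from the labels. Genes kept by filterByExpr (minimum count 10) were scaled by TMM and fitted in edgeR 4.0.16 under R 4.3.3, whose quasi-likelihood F test gave p-values that were adjusted by Benjamini-Hochberg over all genes tested and called under 0.05. Each comparison used its own 6 libraries, and the interaction used all 12. SEs were derived from the F statistic. CPM used library totals. Ratios had 0.5 counts added and were tested by exact permutation. Lower bounds used a floor of 3 counts per library, which covers counting error only. The fit was tested on simulated data. The alternatives were DESeq2 1.42.0, RLE factors, library totals alone, no filter on low counts, a threshold of 0.01, a replicate block, all 12 libraries in 1 model, leaving out each library, 2 counts added to ratios, and the endothelial list without Stab2. All 10 genes were read in every comparison. Of the related lists, the laminin chains and collagens are named, except an item that is not reported here, and otherwise up to 2 genes in each direction with the largest mean change called in both sexes. Mia3 and Leprel1 of the assembly list were not matched. The genes, lists, tests and alternatives were chosen with earlier results of these data known, so they are no independent support.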

Additional observations from a re-analysis of the deposited data

How the results depend on the processing

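All 10 genes stayed lower at 65 weeks in both sexes under all 13 alternatives of each age comparison, with adjusted p of at most 0.000275 (edgeR fits), and no gene passed between sexes or in the interaction under any alternative run, where the lowest edgeR adjusted p were 0.0750 at 2 weeks, 0.0608 at 65 weeks and 0.0729. Between libraries with the same replicate number, deviations from the group mean had correlations from -0.355 to 0.140. With so few libraries a group, these cannot decide whether the samples were paired. The replicate block changed no call and turned the sex difference of Lamc1 at 65 weeks to -0.0062. It was -0.0012 without a filter on low counts. Without Stab2, Lama4 relative to the endothelial list was 0.0072. The cause was not tested.

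Leaving out 1 library at a time gave these log2 ranges. Between sexes at 2 weeks Hspg2 ran from -0.13 to 0.39, Lama5 from -0.051 to 0.28, Lamb1 from -0.0075 to 0.32 and Lamc1 from -0.0074 to 0.37. At 65 weeks Hspg2 ran from -0.12 to 0.015 and Lamc1 from -0.063 to 0.12. In the interaction Hspg2 ran from -0.49 to 0.060, Lamb2 from -0.083 to 0.42 and Sparc from -0.22 to 0.12. For age, the ratio of Hspg2 to Lamc1 ran from -2.76 to -2.68 (exact permutation adjusted p from 0.025 to 0.05, and under the threshold without female 65-week replicate 1 or 2), Nid1 to Nid2 from -0.61 to -0.39 (under it without female 65-week replicate 1), Lamb1 to Lamc1 from -0.32 to -0.19 (under it without female 65-week replicate 2) and Lama4 to Lama5 from -0.016 to 0.43. Hspg2 to Lamc1 was under the threshold only in fits where Nid1 to Nid2 or Lamb1 to Lamc1 was as well. The adjusted p of a ratio depends on the other ratios tested, so these calls do not show a larger difference in Hspg2 to Lamc1. Nid1 to Nid2 between sexes ran from -0.17 to 0.058. Relative to the endothelial list, Lamb2 ran from 0.40 to 0.55, Lama4 from -0.20 to 0.014 and Nid2 from -0.23 to 0.0056.

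Counts at 65 weeks limit Lama5 and Npnt most. With 3 libraries a group, the exact permutation p cannot fall below 0.005 over both strata.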
